A study of Homo sapiens with 6 samples.

Results

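This report covers 39 listed genes of the glutathione, thioredoxin and NADPH systems, together with superoxide dismutases, catalase and the NRF2 regulators, in M14 cells, an established human melanoma line. The members were a fixed list of gene symbols, matched to the Ensembl identifiers of a table of normalised read counts. All 39 had a row among the 26748 genes of the table, and 38 passed the filter for testing, 10 or more normalised counts on average across the 6 libraries. GPX2, the gastrointestinal glutathione peroxidase, did not pass, at 1.91, 2.14 and 1.03 normalised counts in 2D and 1.86, 3.88 and 7.23 in 3D.

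The study sequenced polyadenylated RNA of M14 in 3 libraries of adherent culture (2D) and 3 libraries of floating, non-adherent melanospheres (3D), to characterise the cell populations of the 2 cultures. Nothing in the labels gives a treatment, a genetic change or a time, and all libraries come from 1 cell line. The labels do not state the medium of either culture. They are also silent on whether replicates were separate cultures, so p-values here measure only a spread between libraries that may be technical. In bulk RNA, fewer cells expressing a gene and less of its RNA per cell cannot be told apart.

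Glutathione is a tripeptide made in a pair of ligase steps from glutamate, cysteine and glycine, and it is the electron donor of glutathione peroxidases and glutathione transferases. Thioredoxin works beside it, passing electrons to peroxiredoxins, and both systems are recharged with NADPH, much of it from the pentose phosphate pathway. The transcription factor NRF2, encoded by NFE2L2 and held at a low level by the adaptor KEAP1, switches on many of these genes through antioxidant response elements in their promoters.

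Recovered library totals ran from 16567763 to 19954987 reads, and the number of genes with reads was 20841 to 21772 for 2D libraries and 22458 to 23572 for 3D libraries. The correlation of log2 values across genes was 0.943 to 0.984 between 2D libraries and 0.966 to 0.987 between 3D libraries. 2D replicate 3 stood apart: on the first principal component (68.4% of the variance) it lay at -24.7, against -94.7 and -84.4 in the other 2D libraries and 59.3 to 73.9 in 3D. Results that rest on it are therefore given with and without it. That library was picked from these same data as the 2D library nearest to 3D. The fit without it keeps only replicates 1 and 2 of 2D, and its p-values can be too small. All 14 markers of melanoma and pigment cells had a row, and 7 had a mean of at least 10. Of the defining ones, SOX10 had a mean of 16.1 in 2D and 2.54 in 3D, MLANA 10.2 and 8.26, and TYR 14.8 and 0.323, whereas MITF had 1131 and 288 and PMEL 434 and 1071. ERBB3 had 1446 and 833, DCT 70.0 and 0.619 and S100A1 17.9 and 76.8. Of these MITF, DCT and ERBB3 fell and S100A1 rose (limma, adjusted p under 0.05). The 2D means of SOX10, TYR and MLANA rest largely on 2D replicate 3, at 37.0, 33.9 and 17.5. In 2D replicates 1 and 2, SOX10 had 4.77 and 6.41, TYR 2.86 and 7.47, and MLANA 5.72 and 7.47. MIA was at 0 in all 2D libraries and PAX3 in all 3D libraries. Of 9 epithelial markers, 8 had a row. The summed level of the list, mostly KRT8 and KRT18, was highest in 2D replicate 3, at 66395, against 25963 to 47403 in the other libraries. KRT8 had means of 24771 and 24926 and did not pass, while CDH1 fell from 92.3 to 5.62 and EPCAM from 423 to 172, and CLDN4 rose from 390.5 to 2309.7. Summed fibroblast markers, mostly COL1A1 and COL3A1, ran from 2043 to 6547 in 2D and from 9268 to 12212 in 3D, with DCN at 0 in 2D. The summed endothelial markers were highest in 2D replicate 3, at 321, against 52.3 to 188 elsewhere, with CDH5 at 268 in that library. PECAM1 of the same list rose from a mean of 3.08 to 117. Summed leukocyte markers ran from 63.9 to 112 in 2D and from 134 to 204 in 3D, with PTPRC and CD14 at most 4.27 in any library. The part of these markers in the results below was not tested.

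Few of the redox genes passed the test between cultures. Of 38 members tested, MGST1 rose in 3D, TXNRD2 and NFE2L2 fell, and 35 did not pass (limma, Benjamini-Hochberg adjusted p under 0.05). These 3 members are 7.89% of those tested, against 24.1% of all 15598 genes tested (12.5% higher and 11.6% lower). With libraries rescaled to equal totals, the calls over all genes moved from 1950 higher and 1816 lower to 2392 and 1253, and the members were 2 higher (PRDX2 being added) and 2 lower. The median log2 difference, 3D minus 2D, was 0.14 over the members and -0.02 over all genes, and 21 of the 38 were positive. The 3D libraries lay wholly above the 2D libraries for 4 members (MGST1, MGST2, PRDX2 and CAT), against 20.5% of all genes, and wholly below for 6 (TXNRD1, TXNRD2, PRDX6, SOD2, NFE2L2 and KEAP1), against 22.6% of all genes.

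**Figure D1:**
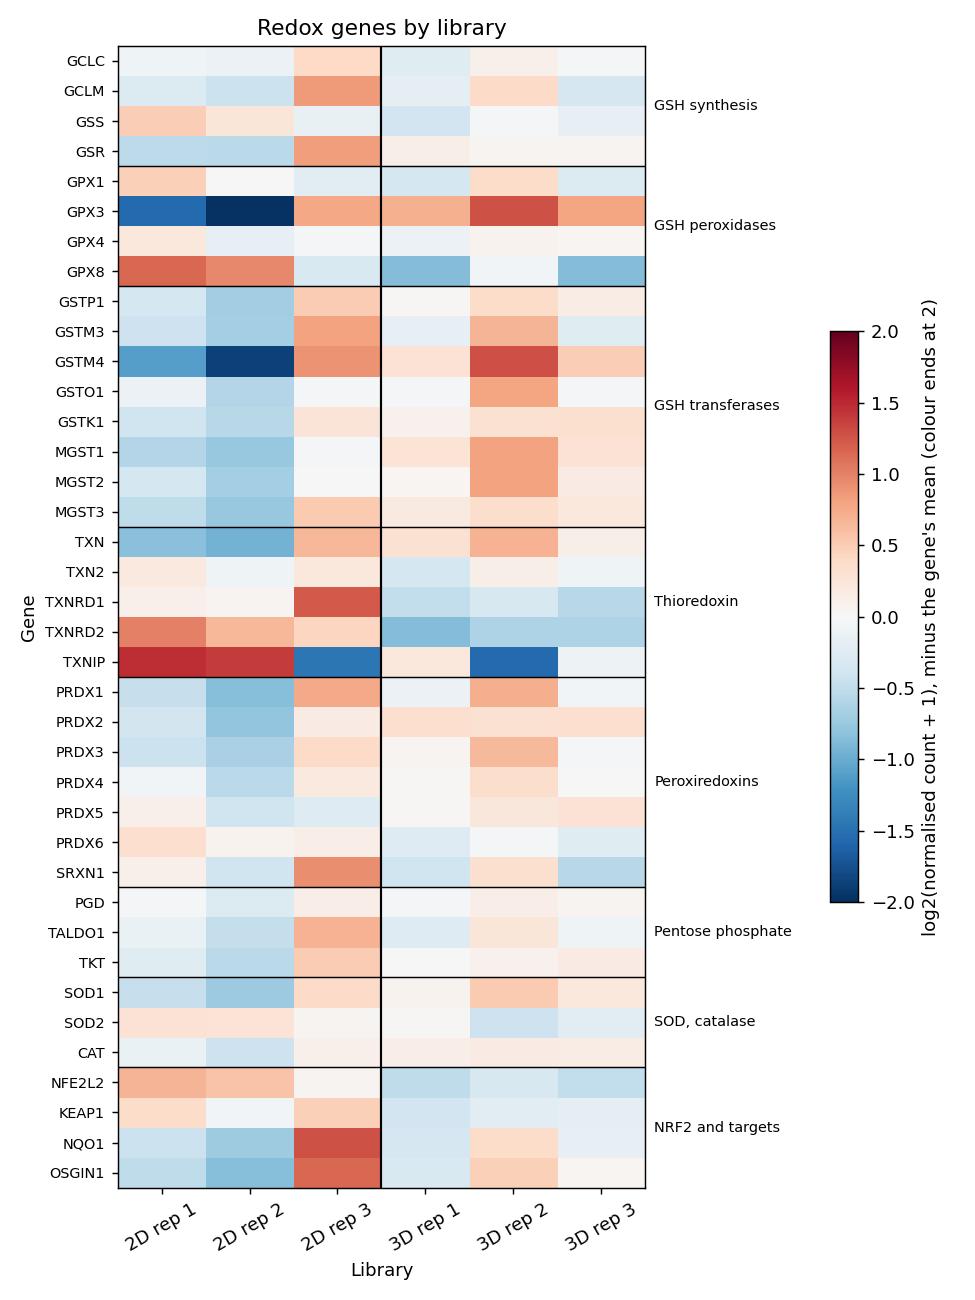
Level of each tested member (rows, by group; GSH stands for glutathione) in each of the 6 libraries (columns), as log2(normalised count + 1) minus the mean of that gene over the libraries, with red above and blue below the mean. The column of 2D replicate 3 is red for most genes while 2D replicates 1 and 2 are mostly blue, and the rows of TXNRD2 and NFE2L2 separate the cultures.

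The calls depended strongly on 2D replicate 3. Without it, 15 members were higher and 7 lower in 3D, 22 in all, with a median of 0.42. Many more of all genes were called too in that fit, 45.6% (22.6% higher and 23% lower). The 15 higher calls among the 38 members tested were a larger share than that over all genes. The 7 lower calls were a slightly smaller share, near the background. Neither share was tested against the background. The higher members were GSR, GPX3, GSTP1, GSTM4, GSTK1, MGST1, MGST2, MGST3, TXN, PRDX1, PRDX2, PRDX3, TKT, SOD1 and CAT, at log2 differences of 0.42 to 2.68. The lower members were GSS, GPX8, TXNRD1, TXNRD2, TXNIP, SOD2 and NFE2L2, at -1.91 to -0.48. When 3D replicate 2 was left out as well, 15 were higher and 10 lower, against 28.4% and 29.5% of all genes (58% in all). The edgeR quasi-likelihood test on recovered reads of all 6 libraries gave 1 member higher and 2 lower, against 12.5% and 11% of all genes (23.4% in all). TXNRD2 was the only member called in each of the 6 fits that left out 1 library.

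**Figure D2:**
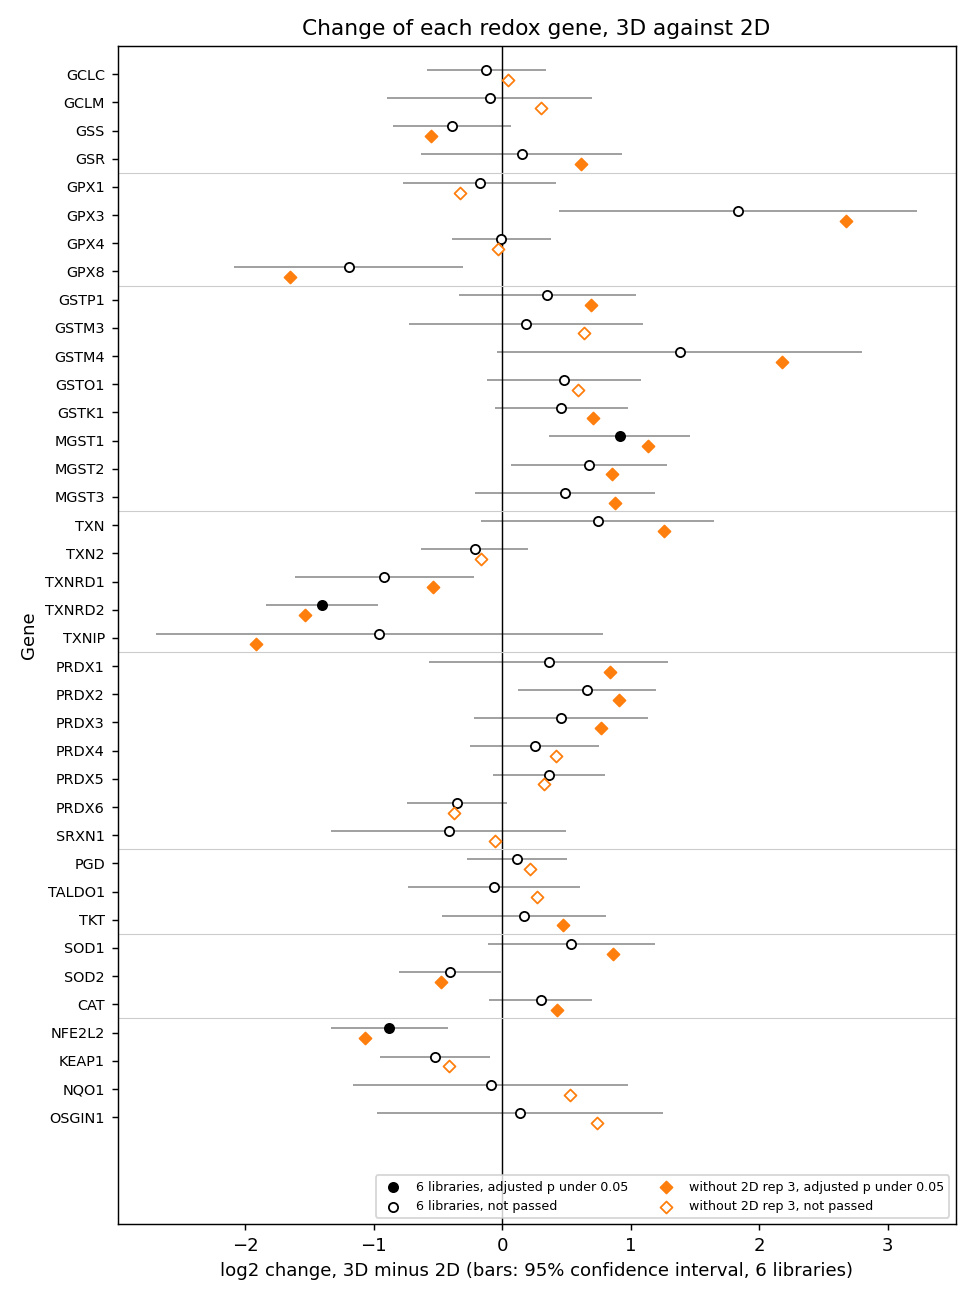
Log2 difference (3D minus 2D, x axis) of each of the 38 tested members (y axis) with all 6 libraries (circles, with 95% confidence intervals) and without 2D replicate 3 (diamonds); filled symbols have an adjusted p under 0.05. Only MGST1, TXNRD2 and NFE2L2 are filled with all libraries, and 22 are filled without 2D replicate 3.

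2D replicate 3 was the highest of the 6 libraries for 15 of the 38 members (39.5%), against 17.6% of all genes, and the lowest of the 6 for none, against 15.3%. It lay above both other 2D libraries for 28 members (73.7%), against 42.6% of all genes, and below both for 7 (18.4%), against 41.2%. It was at least 1.5 times the higher of the others for 18 members (47.4%), against 16.9% of all genes, and at least 1.5 times under the lower of them for 2, GPX8 and TXNIP, against 15.8%. Set against 2D replicates 1 and 2 alone, the 3D libraries lay wholly above for 21 members, against 32.6% of all genes, and wholly below for 9, against 34.4%. On the log2 scale 2D replicate 3 was nearer to the 3D mean than to the mean of the other 2D libraries for 30 members (78.9%), against 52.4% of all genes. The ratio of 2D replicate 3 to the mean of 2D replicates 1 and 2 was 5.74 for GPX3, 5.04 for GSTM4, 3.59 for NQO1, 3.52 for OSGIN1, 2.95 for TXN, 2.65 for PRDX1 and 2.60 for GSR. TXNIP went the other way and was 7.35-fold lower in that library. Within 3D, replicate 2 was the highest library for 29 members (76.3%), against 39.3% of all genes. These positions are descriptions of single libraries and were not tested.

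Promoters of the members were read from RefSeq (GRCh38.p14), from 250 bases before to 50 after each gene start, and 32 of the 39 members matched. GSR, GSS, MGST2, TXN2, PRDX1, PRDX6 and SOD1 did not. The core of the antioxidant response element, searched as TGACNNNGC on both strands, lay in the windows of 8 of the 32 members (25%), namely GCLM, GPX2, GSTO1, GSTP1, KEAP1, MGST1, PGD and TXNRD1, and of 16.1% of all genes with a promoter. Counted per promoter, it lay in 9 of the members' 46 windows, against 13.3% of all promoters. The composite element of the stress factor ATF4, searched as TGATGNAA, lay in the windows of 1 of the 32 members, GPX8, and of 4.46% of all genes. A match is a description of the letters and not a site of binding. The sequences below are shown because GCLM, GSTP1 and TXNRD1 are among the 15 members that were highest in 2D replicate 3, and MGST1 is the member that rose. KEAP1 also has the core and was also highest in 2D replicate 3, and is not printed. GCLC, GSTM3, MGST3, SRXN1, TALDO1, TKT, NQO1 and OSGIN1 were highest in that library too, and their windows lacked the core. Sequence outside the windows was not searched, so these genes may have the core elsewhere. Capitals mark the core, which appears as its reverse complement where it lies on the other strand. The windows are chr1:93909381-93909680 on the minus strand (GCLM), chr11:67583562-67583861 on the plus strand (GSTP1), chr12:104215529-104215828 on the plus strand (TXNRD1, which has 2 matches here) and chr12:16346865-16347164 on the plus strand (MGST1, 1 of 3 start windows, with the match after the start).
GCLM: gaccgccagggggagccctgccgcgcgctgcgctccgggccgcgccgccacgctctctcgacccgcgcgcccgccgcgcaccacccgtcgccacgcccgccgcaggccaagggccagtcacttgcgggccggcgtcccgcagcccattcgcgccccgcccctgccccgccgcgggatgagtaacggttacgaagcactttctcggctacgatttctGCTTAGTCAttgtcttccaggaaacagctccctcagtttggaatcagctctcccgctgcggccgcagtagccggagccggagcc
GSTP1: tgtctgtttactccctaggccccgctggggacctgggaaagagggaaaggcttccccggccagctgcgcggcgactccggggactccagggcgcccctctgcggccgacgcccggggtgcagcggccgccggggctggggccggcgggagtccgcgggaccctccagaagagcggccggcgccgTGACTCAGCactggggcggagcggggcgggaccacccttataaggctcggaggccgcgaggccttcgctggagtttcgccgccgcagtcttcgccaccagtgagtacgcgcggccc
TXNRD1: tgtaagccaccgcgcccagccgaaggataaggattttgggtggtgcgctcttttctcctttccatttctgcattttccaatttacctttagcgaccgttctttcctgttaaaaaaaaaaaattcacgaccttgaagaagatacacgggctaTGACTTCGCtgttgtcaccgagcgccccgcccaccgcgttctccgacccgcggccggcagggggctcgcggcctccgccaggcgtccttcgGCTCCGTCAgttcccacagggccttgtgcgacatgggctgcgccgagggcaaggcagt
MGST1: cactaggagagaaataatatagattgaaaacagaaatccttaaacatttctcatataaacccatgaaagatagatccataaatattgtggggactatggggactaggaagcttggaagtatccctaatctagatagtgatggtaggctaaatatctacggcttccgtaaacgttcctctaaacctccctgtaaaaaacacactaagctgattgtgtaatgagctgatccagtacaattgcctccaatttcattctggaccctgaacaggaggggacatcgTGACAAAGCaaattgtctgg

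In glutathione synthesis and reduction none of the 4 members passed with all libraries, and the median log2 difference was -0.11. GCLC, the catalytic subunit of the rate-limiting glutamate-cysteine ligase, had 687, 675 and 964 normalised counts in 2D and 619.8, 784 and 711 in 3D. GCLM, the modifier subunit of that ligase, had 503, 449 and 1095 in 2D and 533, 790.0 and 480.0 in 3D. For both subunits the groups overlapped and the highest library was 2D replicate 3. The log2 difference was -0.12 for GCLC (SE 0.20, adjusted p = 0.681) and -0.10 for GCLM (SE 0.35, adjusted p = 0.858).

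GSR, the reductase that returns oxidised glutathione to its reduced form with NADPH, had 1036, 1024 and 2675 in 2D and 1613, 1551 and 1556 in 3D. The 3D libraries were tight and fell between the pair of low 2D libraries and the high one. The log2 difference was 0.15 (adjusted p = 0.771) with all libraries and 0.61 (adjusted p = 0.0065) without 2D replicate 3. GSS, the synthetase of the last step, had 2435, 2042 and 1568 in 2D and 1336, 1687 and 1542 in 3D, so that the groups overlapped only through 2D replicate 3 and 3D replicate 2. Its difference was -0.39 (adjusted p = 0.184) with all libraries and -0.56 (adjusted p = 0.022) without 2D replicate 3.

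Of the glutathione peroxidases, which reduce peroxides at the expense of glutathione, none of the 4 tested passed, and the median was -0.09. GPX1, the abundant cytosolic enzyme, had 10163, 7288 and 6264 in 2D and 5684, 9448 and 6014 in 3D. GPX4, which reduces lipid hydroperoxides in membranes, had 4770.0, 3674 and 3988 in 2D and 3805, 4302 and 4203 in 3D. The groups overlapped for both, with log2 differences of -0.17 (SE 0.26, adjusted p = 0.652) for GPX1 and -0.01 (SE 0.17, 95% interval -0.39 to 0.38) for GPX4.

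GPX3, the secreted peroxidase, had 212, 157 and 1058 in 2D and 1010.4, 1495 and 1067 in 3D. 2D replicate 3 lay inside the range of the 3D libraries, and the other 2D libraries far under it. Its log2 difference was 1.84 (SE 0.61, adjusted p = 0.0596) with all libraries and 2.68 (adjusted p = 6.9e-05) without 2D replicate 3. GPX8, a peroxidase of the endoplasmic reticulum, had 2782, 2426 and 1009.6 in 2D and 688, 1203 and 683 in 3D, with 2D replicate 3 again within the 3D range. Its difference was -1.196 (SE 0.39, adjusted p = 0.0553) with all libraries and -1.65 (adjusted p = 0.0012) without that library. GPX3 and GPX8 thus lay in opposite directions within 1 family, and neither passed with all libraries.

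The glutathione transferases, which join glutathione to electrophiles, had 1 member that rose, 7 that did not pass and none that fell, with a median log2 difference of 0.49 against -0.02 over all genes. All 8 had a positive difference with all libraries, although that of GSTM3 was negative when replicate 2 of either culture was left out. Without 2D replicate 3, 6 were higher, against 22.6% of all genes in that fit, and the median was 0.78. MGST1 (ENSG00000008394, chromosome 12, 16347142 to 16609259, GRCh38), a microsomal transferase that also has peroxidase activity, had 1347, 1199 and 1995 normalised counts in 2D and 2445, 3564 and 2488 in 3D. Every 3D library was above every 2D library, and 2D replicate 3 was the nearest to them. MGST1 rose 1.87-fold, from 1514 ± 424 to 2832 ± 634 (SD, n = 3 libraries per culture here and below), a log2 difference of 0.92 (SE 0.24, adjusted p = 0.0284). Leaving out any library other than 2D replicate 3 ended this call (adjusted p up to 0.101), while without 2D replicate 3 the difference was 1.13 (adjusted p = 0.0020).

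GSTP1, the pi-class transferase and the most abundant transferase here per length, had 9912, 7787 and 17927 in 2D and 12786, 16199 and 13899 in 3D. Its difference was 0.35 (adjusted p = 0.415) with all libraries and 0.70 (adjusted p = 0.0123) without 2D replicate 3, the highest library. GSTM4, a mu-class enzyme, had 139, 81.1 and 555 in 2D and 366, 734 and 421 in 3D, with 10.1% of its 75-base windows shared with other genes, mainly GSTM2. GSTM4 had a difference of 1.38 (SE 0.62, adjusted p = 0.132), and 2.17 (adjusted p = 0.0013) without 2D replicate 3.

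GSTK1, the kappa-class enzyme of mitochondria and peroxisomes, had 1114, 993 and 1747 in 2D and 1543, 1796 and 1819.9 in 3D. MGST2, a microsomal enzyme that can also make leukotriene C4, had 417, 331 and 535 in 2D and 546, 933 and 596 in 3D, and MGST3, its microsomal relative, had 1518, 1270.3 and 3113 against 2438, 2753 and 2484. The 3 genes had in common that 2D replicate 3 was the highest 2D library, and MGST2 alone of them had no overlap between cultures. Their differences were 0.46, 0.68 and 0.49 with all libraries (adjusted p = 0.165, 0.0936 and 0.263) and 0.70, 0.85 and 0.88 without 2D replicate 3 (adjusted p = 0.0056, 0.0228 and 0.0019). GSTM3 and GSTO1 did not pass in either fit, with differences of 0.18 and 0.48 over all libraries.

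The thioredoxin system held the member with the firmest difference. TXNRD2 (ENSG00000184470, chromosome 22, 19875517 to 19941992, GRCh38), the mitochondrial thioredoxin reductase, had 4502, 3545 and 3037 normalised counts in 2D and 1225, 1459 and 1469 in 3D. The lowest 2D library was above the highest 3D library, and 2D replicate 3 did not stand apart. TXNRD2 fell 2.67-fold, from 3695 ± 744 to 1384 ± 138, a log2 difference of -1.40 (SE 0.19, adjusted p = 0.0026). Over the 6 fits with 1 library left out the difference ran from -1.53 to -1.25 and the adjusted p from 0.00022 to 0.0188. Its partner in mitochondria, TXN2, had 1605, 1321 and 1626 in 2D and 1099, 1515 and 1325 in 3D, with overlap and a difference of -0.21 (adjusted p = 0.414).

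The cytosolic pair behaved differently between libraries. TXNRD1, the cytosolic thioredoxin reductase, had 8578, 8244 and 18572 in 2D and 5641, 6364 and 5422 in 3D. All 3D libraries were under all 2D libraries, and 2D replicate 3 was 2.21 times the mean of the other 2D libraries. Its difference was -0.92 (SE 0.31, adjusted p = 0.0594) with all libraries and -0.54 (adjusted p = 0.0153) without 2D replicate 3, a smaller size with a smaller spread. TXN, cytosolic thioredoxin itself, had 1441, 1341 and 4099 in 2D and 3195, 4157 and 2796 in 3D, with a difference of 0.74 (adjusted p = 0.197), and of 1.26 (adjusted p = 0.00096) without 2D replicate 3. Without that library, then, TXN was higher and both reductases were lower in 3D.

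TXNIP, an arrestin-fold protein that binds thioredoxin and restrains glucose uptake, had 13683, 12903 and 1808 in 2D and 5688, 1676 and 4589 in 3D. 2D replicate 3 and 3D replicate 2 were the pair of low libraries, so the lowest value of each culture was nearly the same. The log2 difference was -0.96 (SE 0.77, adjusted p = 0.381) with all libraries, -1.91 (adjusted p = 0.0080) without 2D replicate 3, and -0.42 at its smallest in a fit with 1 library left out. The carbohydrate response element, a pair of E boxes searched on both strands, lay in 20 of 35116 promoters (0.057%), and TXNIP was the only one of the 32 members with a promoter among them. Its promoter, chr1:145996530-145996829 on the minus strand, is shown because TXNIP has the widest spread of the group within 2D, and capitals mark the match.
TXNIP: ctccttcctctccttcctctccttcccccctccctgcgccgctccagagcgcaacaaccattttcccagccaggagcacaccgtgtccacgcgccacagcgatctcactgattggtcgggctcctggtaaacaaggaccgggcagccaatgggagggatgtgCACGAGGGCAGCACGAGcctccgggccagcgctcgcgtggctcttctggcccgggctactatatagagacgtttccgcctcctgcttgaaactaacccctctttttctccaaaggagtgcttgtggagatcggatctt

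**Figure D3:**
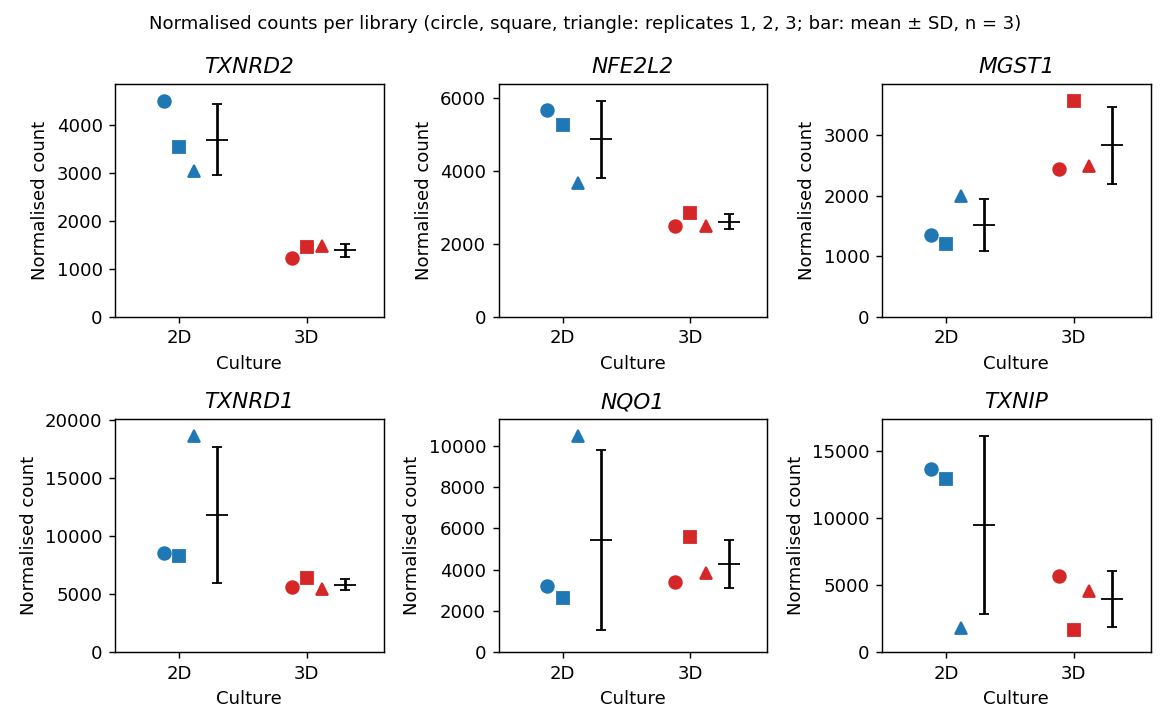
Normalised counts (y axes, each from 0) of 6 members in the 2D (blue) and 3D (red) libraries, with replicates 1, 2 and 3 as circle, square and triangle and the mean ± SD beside them. TXNRD2 and NFE2L2 are lower and MGST1 higher in all 3D libraries, TXNRD1 and NQO1 are highest in 2D replicate 3, and TXNIP is low in 2D replicate 3 and 3D replicate 2.

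Among the peroxiredoxins, which reduce peroxides with electrons from thioredoxin, and sulfiredoxin, none of 7 passed with all libraries and the median was 0.36. PRDX1, the main cytosolic enzyme, had 4280.2, 3239.9 and 9959 in 2D and 5419, 9648 and 5614 in 3D. PRDX2, its cytosolic relative, had 2061, 1538 and 2984 in 2D and 3367, 3285 and 3372 in 3D. PRDX3, the mitochondrial enzyme, had 2347, 2018 and 4136 in 2D and 3296, 4979 and 3095 in 3D. Only PRDX2 had no overlap between the cultures, and 2D replicate 3 was the highest 2D library for all 3 genes. Their differences were 0.36, 0.66 and 0.46 (adjusted p = 0.539, 0.073 and 0.280), and without 2D replicate 3 they were 0.84, 0.91 and 0.77 (adjusted p = 0.0293, 0.0023 and 0.0192). The libraries do not mark strand, and 24.9% of the exon bases of PRDX1 and 14.1% of those of PRDX2 overlap an antisense gene (MMACHC for PRDX1, AC018761.2 for PRDX2).

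PRDX4 of the endoplasmic reticulum, PRDX5 of several compartments and PRDX6, which uses glutathione in place of thioredoxin, had differences of 0.26, 0.36 and -0.35 and passed neither with all libraries nor without 2D replicate 3. PRDX6 had 8263, 6854 and 7162 in 2D and 5479, 6484 and 5529 in 3D, without overlap. SRXN1, sulfiredoxin, which rescues overoxidised peroxiredoxins, had a difference of -0.42 (adjusted p = 0.467), but 84.6% of its windows are shared with AL121758.1 and its values are uncertain.

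The 3 pentose phosphate members did not pass, with a median of 0.12. PGD, the dehydrogenase that makes NADPH in the oxidative branch, had 4137, 3542 and 4679.8 in 2D and 4202, 4693 and 4428 in 3D. TALDO1 and TKT, transaldolase and transketolase, carry the non-oxidative branch, and both were highest in 2D replicate 3. TKT had 17082, 13944 and 28847 in 2D and 20335, 21357 and 22659 in 3D, with a difference of 0.17 (adjusted p = 0.678), and of 0.47 (adjusted p = 0.0424) without 2D replicate 3. The differences were 0.12 (95% interval -0.27 to 0.50) for PGD and -0.06 (-0.73 to 0.61) for TALDO1.

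None of the superoxide dismutases and catalase passed with all libraries, and their median was 0.30. SOD1, the cytosolic copper and zinc enzyme, had 2927, 2428 and 5259.6 in 2D and 4233, 5799.8 and 4669 in 3D. SOD2, the mitochondrial manganese enzyme, had 2159, 2138 and 1838 in 2D and 1804, 1338 and 1519 in 3D. CAT, the peroxisomal catalase, had 1349.5, 1118 and 1587 in 2D and 1636, 1659 and 1649.6 in 3D. SOD2 and CAT did not overlap between the cultures, and SOD1 overlapped through 2D replicate 3. The differences were 0.54, -0.40 and 0.30 (adjusted p = 0.192, 0.1196 and 0.232), and without 2D replicate 3 they were 0.87, -0.48 and 0.42 (adjusted p = 0.0046, 0.0399 and 0.0416).

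NFE2L2 (ENSG00000116044, chromosome 2, 177227595 to 177392697, GRCh38), which encodes NRF2, had 5677, 5259 and 3680.5 normalised counts in 2D and 2485, 2844 and 2503 in 3D. Every 3D library was under every 2D library, with 2D replicate 3 the lowest of the 2D libraries. NFE2L2 fell 1.87-fold, from 4872 ± 1053 to 2611 ± 202, a log2 difference of -0.88 (SE 0.20, adjusted p = 0.0173). The call was lost without replicate 1 or 2 of 2D or replicate 1 or 3 of 3D (adjusted p up to 0.0787), and the difference was -1.07 (adjusted p = 0.00057) without 2D replicate 3. Of its exon bases 21.7% overlap other genes, some of them antisense. The RNA level of NFE2L2 does not measure the NRF2 protein, which is set largely by its breakdown.

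KEAP1, the adaptor that marks NRF2 for breakdown, had 1513, 1130.5 and 1625 in 2D and 895, 1012 and 1036 in 3D. These did not overlap, at a difference of -0.52 (SE 0.19, adjusted p = 0.0736). NQO1, a quinone reductase and a standard NRF2 target, had 3187, 2641 and 10456 in 2D and 3402, 5587 and 3834 in 3D. 2D replicate 3 was above every other library and the other 2D libraries were under every 3D library, and the difference was -0.09 (SE 0.47, adjusted p = 0.904), or 0.53 (adjusted p = 0.0795) without 2D replicate 3. An antisense gene, AC092115.2, overlaps 17.7% of the exon bases of NQO1. OSGIN1, a stress-induced NRF2 target, had the same order of libraries at lower counts, 132, 104 and 413 in 2D and 151, 259.8 and 191 in 3D, with a difference of 0.14 (adjusted p = 0.858).

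**Figure D4:**
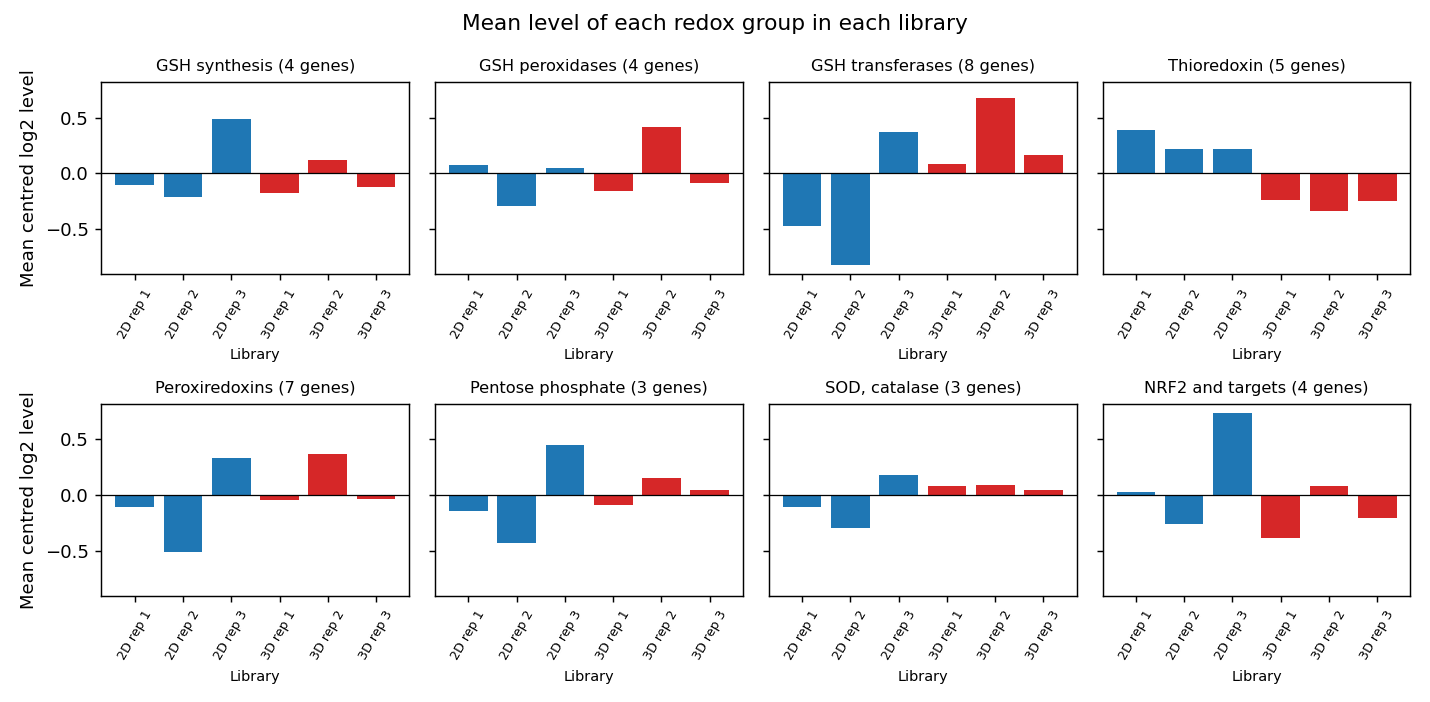
Mean level of the tested members of each group (y axis, mean over genes of log2(normalised count + 1) centred on each gene's mean) in each library (x axis; 2D blue, 3D red; GSH stands for glutathione). The thioredoxin group is positive in all 2D libraries (0.21 to 0.39) and negative in all 3D libraries (-0.34 to -0.24), although TXN within it has a positive log2 difference. The NRF2 group is highest in 2D replicate 3 (0.74), although NFE2L2 within it has its lowest 2D value there. The groups of glutathione synthesis (0.49), pentose phosphate (0.45) and superoxide dismutases with catalase (0.18) are also highest in that library.

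Compared per exon length, PRDX5 had the highest level of the members in both cultures, at 409 ± 62.8 RPKM (reads per kilobase of exon, scaled to library size) in 2D and 574 ± 42.4 in 3D. GSTP1 followed at 337 ± 153 and 444 ± 50.6, GPX1 at 298 ± 68.8 and 292 ± 85.1 and PRDX1 at 208 ± 130 and 269 ± 91.8. In 2D these neighbours in the order did not differ beyond their spread, whereas in 3D the level of PRDX5 was above that of GSTP1 and the latter above that of GPX1 by more than the SDs, with no test made. These levels use the summed length of all annotated exons, which lowers genes with long exons that are seldom used.

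Genes of 9 further redox lists were counted beside the members. Of 174 genes tested, each taken once, 26 were higher and 24 lower in 3D, with a median of -0.06, against 12.5% and 11.6% of all genes. Without 2D replicate 3 the counts were 52 and 47, against 22.6% and 23% of all genes. With all libraries the shares are near the background, and without 2D replicate 3 they are somewhat above it. The pooled counts mix lists that differ, as given below, and were not tested against the background. In cystine supply and glutathione breakdown, 3 of 18 were higher and 4 lower, with a median of -0.25, and 4 and 7 without 2D replicate 3. SLC7A11, the cystine transporter, fell from 3871 ± 756 to 1470.4 ± 728 (log2 difference -1.49, adjusted p = 0.0140), a call lost without replicate 2 of 2D or replicate 1 or 3 of 3D (adjusted p up to 0.0612). SLC3A2, the heavy chain it pairs with, fell by 2.33 on the log2 scale (adjusted p = 0.0028). Of the enzymes that break down glutathione outside the cell, 2 rose: ANPEP, an aminopeptidase, from 127 ± 65.8 to 2452 ± 1495 (4.22, adjusted p = 0.00087) and GGT1, the gamma-glutamyltransferase, from 184 ± 164 to 999.6 ± 71.2 (2.78, adjusted p = 0.0072). GGT1 shares 24.1% of its windows with other genes and is uncertain. SLC1A1, a glutamate and cysteine carrier, rose by 2.24 (adjusted p = 0.0101), a call lost without replicate 1 or 3 of 3D (adjusted p up to 0.0543). CHAC1, which degrades glutathione inside the cell and is a target of the stress factor ATF4, had 3421, 2990.1 and 48.3 in 2D and 47.3, 90.2 and 74.3 in 3D, so that 2D replicate 3 had the level of the spheres. Its difference was -3.52 (adjusted p = 0.0948) and -5.53 (adjusted p = 1.2e-05) without that library.

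A further list around NADPH production also holds enzymes that do not make NADPH themselves, such as RPIA, RPE and NADK. Of its 17 tested genes, 1 was higher and 2 were lower, with a median of -0.04, and 3 and 6 without 2D replicate 3. The shares over all genes were 12.5% higher and 11.6% lower, and 22.6% and 23% without that library. ME1, cytosolic malic enzyme, rose by 0.68 (adjusted p = 0.0477), a call lost when any library other than 2D replicate 3 was left out (adjusted p up to 0.146). MTHFD2, of the mitochondrial folate pathway, fell by 1.72 (adjusted p = 0.0105), a call lost without 3D replicate 3 (0.0541). MTHFD1L, of the same pathway, fell by 0.87 (adjusted p = 0.0243), a call lost without replicate 1 or 2 of 2D or replicate 1 or 3 of 3D (adjusted p up to 0.101).

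Other glutathione-dependent enzymes had 2 of 18 higher and 2 lower, with a median of -0.15, and 3 and 5 without 2D replicate 3. All genes had 12.5% higher and 11.6% lower, and 22.6% and 23% without that library. The higher pair, GSTT2B and GSTT2, share 85.4% and 74.7% of their windows with other genes and are uncertain. LANCL1, a glutathione-binding protein, fell by 0.74 (adjusted p = 0.0251), a call lost without 2D replicate 1 or any 3D library (adjusted p up to 0.0965). GDAP1, a glutathione transferase relative of mitochondria, fell by 1.06 (adjusted p = 0.0400), a call lost without replicate 1 or 2 of 2D or replicate 1 or 3 of 3D (adjusted p up to 0.149). In the list of thioredoxin-fold proteins, methionine sulfoxide reductases and sestrins, 2 of 26 were higher and 5 lower, with a median of -0.30. Without 2D replicate 3 these were 7 and 10. The shares of all genes to set beside these counts are those given above for the other glutathione-dependent enzymes. MSRB3, a methionine sulfoxide reductase, fell from 1100.5 ± 216 to 187 ± 50.3 (-2.56, adjusted p = 0.0007). SESN3, a sestrin, fell from 15752 ± 2636 to 5004 ± 1200.4 (-1.67, adjusted p = 0.0026), and TXNDC11 fell by 1.204 (adjusted p = 0.0036). ARRDC3, an arrestin-domain relative of TXNIP, rose from 392 ± 26.3 to 1128 ± 202 (1.51, adjusted p = 0.0019). ARRDC4, another relative, named after its values were seen, had 913, 1003 and 220.0 in 2D and 200.4, 71.7 and 167 in 3D. ARRDC4 fell by 2.12 on the log2 scale (adjusted p = 0.0356), a call lost when any library other than 2D replicate 3 was left out (adjusted p up to 0.124). Its low libraries were those of TXNIP, 2D replicate 3 within 2D and 3D replicate 2 within 3D. The promoter of ARRDC4 held no match to the carbohydrate response element as searched for TXNIP.

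Around NRF2 itself, 1 of 18 control genes was higher and 5 were lower, with a median of -0.39, against 12.5% and 11.6% of all genes. Without 2D replicate 3 these were 4 and 9, against 22.6% and 23% of all genes. NFE2, a relative of NFE2L2 known from red blood cell precursors, rose from 123 ± 20.5 to 653.5 ± 51.5 (2.41, adjusted p = 0.00049). BTRC, a substrate receptor that can also mark NRF2 for breakdown, fell by 1.01 (adjusted p = 0.0038). CUL3, the scaffold of the KEAP1 ligase, fell by 0.79 (adjusted p = 0.0135), a call lost without replicate 1 or 2 of 2D or replicate 1 or 3 of 3D (adjusted p up to 0.0700). MAFF, a small Maf partner, fell by 1.97 (adjusted p = 0.0147), a call lost without replicate 1 or 2 of 2D or replicate 3 of 3D (adjusted p up to 0.0566).

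NRF2 targets outside the members had 10 of 28 higher and 1 lower in 3D, with a median of 0.58, against 12.5% higher and 11.6% lower over all genes. Without 2D replicate 3, 17 were higher and 2 lower, against 22.6% and 23% of all genes. The list was chosen with earlier results of these data known, and its counts were not tested against the background. NQO1 and OSGIN1, the members grouped here with NRF2 as its targets, passed neither with all libraries (-0.09 and 0.14) nor without 2D replicate 3. Members of the other groups can be switched on by NRF2 too, so this pair does not stand for all targets among the members. The aldo-keto reductases, which reduce carbonyl compounds and steroids, led the list. AKR1B10, AKR1C1, AKR1C2 and AKR1C3 are related genes and are all among the 10. AKR1C3 had 39.1, 37.4 and 273 in 2D and 1313, 3679 and 1345 in 3D, with all 3D libraries far above 2D replicate 3, the highest 2D library (4.64, adjusted p = 0.0048). AKR1C1 rose from 34.8 ± 27.8 to 1221 ± 915 (5.12, adjusted p = 0.0013). AKR1B10 went from 3 to 213 summed reads, which is a ratio of 68.2 (exact 95% binomial interval 23.0 to 334), and AKR1C2 went from 3 to 514, or a ratio of 165 (56.0 to 801), intervals that cover counting error only. AKR1C1 and AKR1C2 share 21.9% and 30.1% of their windows with other genes and are uncertain. HMOX1, heme oxygenase, rose from 250.8 ± 82.2 to 470.3 ± 109 (0.92, adjusted p = 0.0446), a call lost when any library other than 2D replicate 3 was left out (adjusted p up to 0.148). The 1 target that fell was SLC7A11, with the values given above.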

How the data were processed

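The deposited table gives 1 signal value per gene and library: the authors divided read counts by 1 factor per library, as the values show, after work with GRCh38 (hg38), featureCounts 1.5.0, HISAT2 and DESeq2, which the submitters' processing notes name without roles. In each library 100% of values were whole multiples of 1 step within 0.01 of a read, so whole reads were recovered. The other versions and the gene annotation release were not given in sources used here. Per the labels' protocols the library kit was TruSeq RNA v2 from Illumina, which does not mark strand. Group and replicate came from the sample titles. The table also held 6 columns without a name, which were not used.

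Of 26748 genes, 26693 were given a symbol, 187 of them from GENCODE 29, which also gave coordinates and exon lengths. Genes with a mean of at least 10 were tested, 15598 in all, with limma 3.58.1 (R 4.3.3; lmFit, eBayes with a trend) on log2(value + 1), culture as the only term, two-sided, with Benjamini-Hochberg adjustment over all genes at 0.05. Differences on this scale understate the change of low genes. Per-length levels are RPKM from the recovered reads and the length of all exons. Shared sequence is the share of a gene's 75-base windows found in transcripts of another gene, and genes above about 20% are called uncertain. Where 1 culture had at most 3 reads, a read ratio with its exact 95% binomial interval is printed. Counts of every pair of libraries differed by more than sampling noise (the lowest mean chi-square per gene was 9.70).

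Every member was accounted for. Values per library are given for members that passed, for the main enzyme of each group and for members whose call changed without 2D replicate 3. Of each further list up to 4 called genes with the smallest p are named, with SLC7A11, HMOX1, ME1 and CHAC1; 1 further gene of this rule is not reported here. Members, lists and tests were chosen with earlier results of these data known. The 20 alternatives included edgeR 4.0.16, which called 3657 genes (23.4%), and DESeq2 1.42.0 on recovered reads. The workflow was tested on simulated data.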

Additional observations from a re-analysis of the deposited data

How the results depend on the processing

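With 3 libraries per culture, leaving out 1 library moved the count of members higher in 3D between 0 and 15, that of members lower between 1 and 7, and those of genes of the further lists between 14 and 52 higher and between 8 and 47 lower, the top of each range without 2D replicate 3. Over all 15598 genes the same fits gave 534 to 3526 higher and 656 to 3585 lower. Leaving out both 2D replicate 3 and replicate 2 of 3D, 15 members were higher and 10 lower, and 56 and 59 genes of the further lists. Over all genes that fit gave 4436 higher and 4605 lower. With no filter, 2 members were higher and 3 lower, GPX3 and GPX8 being added, against 2298 higher and 1690 lower of 26748 genes. With libraries rescaled to equal totals, which moved the median of all genes from -0.02 to 0.11 and the calls over all genes to 2392 higher and 1253 lower, 2 members were higher, PRDX2 being added. DESeq2 gave 4 members lower, GPX8 and TXNRD1 being added, but it also called more of all genes, 2408 higher and 2316 lower. At an adjusted p under 0.01, 0 members were higher and 1 lower, with 14 and 6 genes of the further lists. That threshold left 541 higher and 580 lower over all genes. With a log2 change of at least 1, 0 members were higher and 1 lower, with 22 and 16 genes of the further lists. All genes then had 1624 higher and 1003 lower. The replicate numbers did not pair the libraries (correlations of same-numbered deviations -0.084, -0.139 and 0.045), and with the replicate number as a block 2 members were higher and 3 lower, again with GPX3 and GPX8. The block gave 1748 higher and 1474 lower over all genes.

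Signs turned only for members that had not passed. GCLC was 0.0088 with equal totals and -0.21 (without 2D replicate 2) to 0.044 (without 2D replicate 3) with 1 library left out. GCLM was 0.034 with equal totals, 0.088 with both libraries left out and -0.34 (without 2D replicate 2) to 0.30 (without 2D replicate 3) with 1 library left out. GPX1 was -0.40 (without 3D replicate 2) to 0.022 (without 2D replicate 1) with 1 library left out. GPX4 was 0.12 with equal totals, 0.022 by the median of ratios, 0.021 by edgeR, 0.016 by DESeq2 and -0.090 (without 2D replicate 2) to 0.098 (without 2D replicate 1) with 1 library left out. GSR was -0.082 (without 2D replicate 2) to 0.61 (without 2D replicate 3) with 1 library left out. GSTM3 was -0.11 (without 3D replicate 2) to 0.64 (without 2D replicate 3) with 1 library left out. NQO1 was 0.042 with equal totals, 0.32 with both libraries left out and -0.47 (without 2D replicate 2) to 0.53 (without 2D replicate 3) with 1 library left out. OSGIN1 was -0.061 by edgeR, -0.076 by DESeq2 and -0.25 (without 2D replicate 2) to 0.74 (without 2D replicate 3) with 1 library left out. TALDO1 was 0.069 with equal totals, 0.13 with both libraries left out and -0.32 (without 2D replicate 2) to 0.27 (without 2D replicate 3) with 1 library left out. TKT was -0.051 (without 2D replicate 2) to 0.47 (without 2D replicate 3) with 1 library left out. The cause was not tested.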

Other observations

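Selenoproteins carry selenocysteine, as the thioredoxin reductases and several glutathione peroxidases do. Of 21 tested genes for selenoprotein synthesis and other selenoproteins, 3 were higher and 2 lower in 3D, with a median log2 difference of 0.12. All genes had 12.5% higher and 11.6% lower. Without 2D replicate 3 the counts were 6 and 4, against 22.6% and 23% of all genes in that fit. SELENOW, a small selenoprotein, had 316, 276 and 409 normalised counts in 2D and 1543, 1876 and 1529.8 in 3D, a difference of 2.31 (limma, adjusted p = 0.00049), with every 3D library above every 2D library. LRP8, a receptor that takes up selenoprotein P, had 213, 259 and 883 in 2D and 1348, 1237 and 1406 in 3D (1.86, adjusted p = 0.0238), a call lost when any library other than 2D replicate 3 was left out (adjusted p up to 0.0882). SCLY, which recovers selenium from selenocysteine, rose by 1.01 (adjusted p = 0.0219), a call lost without replicate 1 or 2 of 2D or replicate 1 or 3 of 3D (adjusted p up to 0.0970). DIO3, a deiodinase, fell by 2.47 (adjusted p = 0.0107).

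Of 17 tested ferroptosis genes, 3 were higher and 3 lower, with a median of -0.01, and 6 and 4 without 2D replicate 3. The shares over all genes, for this list and the next, were 12.5% higher and 11.6% lower. Without that library they were 22.6% and 23%. ACSL4, which loads polyunsaturated fatty acids into lipids, rose from 1202 ± 40.4 to 2770.1 ± 776 (1.17, adjusted p = 0.0071). AIFM2, a quinone reductase that limits lipid peroxidation, fell from 1470.5 ± 228 to 563 ± 28.99 (-1.37, adjusted p = 0.0020). PTGS2, a cyclooxygenase, rose from 12.9 ± 3.14 to 137 ± 34.7 (3.31, adjusted p = 0.00087), and VKORC1L1 fell by 0.56 (adjusted p = 0.0403), a call lost when any library other than 2D replicate 3 was left out (adjusted p up to 0.155). Of 15 NADPH oxidase and other superoxide genes, 2 were higher and 1 lower, with a median of -0.16, and 4 and 2 without 2D replicate 3. MAOA, a monoamine oxidase, rose from 27.9 ± 16.0 to 203 ± 26.2 (2.95, adjusted p = 0.0024). MAOB fell by 1.36 (adjusted p = 0.0204), a call lost without replicate 1 or 2 of 2D or replicate 1 or 3 of 3D (adjusted p up to 0.0813), and NOX5 had 2.86, 2.14 and 24.7 in 2D and 65.9, 104 and 97.0 in 3D (3.70, adjusted p = 0.0115), a call lost without 3D replicate 3 (0.0582).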
